A study of Mus musculus with 27 samples.

Results

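The genes described here are 40 imprinted genes of the mouse from 16 loci, followed by bulk RNA-seq along an in vitro path from embryonic stem cells to Sertoli-like cells. They were matched by symbol to the Ensembl gene IDs of the deposited tables, and all 40 were found among 48795 genes. In all, 27 libraries were made, 3 for each of 9 groups. ESC are embryonic stem cells grown in 2i/LIF and then passed once in serum replacement medium with LIF. EpiSC are epiblast-like cells, taken after 60 h in 20 ng/ml activin A and 12 ng/ml bFGF. M are early mesoderm cells, taken after 36 h in 20 ng/ml bFGF, 10 ng/ml BMP4 and 10 μM of the PI3K inhibitor LY294002. The 5 groups IM1 to IM5 are intermediate mesoderm cultures, all of which received 20 ng/ml BMP4 and 5 ng/ml bFGF. IM1 received nothing more, IM3 received 100 nM retinoic acid (RA), IM2 received RA and 10 ng/ml Activin A, IM4 received RA and 0.3 μM of the GSK3 inhibitor CHIR99021, and IM5 received RA with both. The iSLC group (induced Sertoli-like cells) came from IM3 cultures that were transduced with lentiviral, doxycycline-inducible Nr5a1 and Dmrt1, moved to Sertoli medium and sorted for CFP, so these steps cannot be told apart in iSLC against IM3. All groups carry the Tesco-CFP reporter, in which an enhancer of Sox9 drives CFP, and the R26-rtTA transgene, and descend from clone 7, a single XY clone of the F1 cross C57BL/6 x CBA, so the spread between libraries holds no variation between clones or animals.

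In imprinting, a gene is expressed mainly from the copy inherited from one parent. The choice is set by DNA methylation that differs between egg and sperm at a control region, and is kept through the divisions of the embryo by factors such as ZFP57, TRIM28 and DNMT1. Many imprinted genes act on growth: several genes expressed from the paternal copy promote it (Igf2, Dlk1, Peg3, Mest), and several expressed from the maternal copy restrain it (Igf2r, Cdkn1c, Phlda2, Grb10). Of the 40 genes, 23 are best known as paternally expressed and 13 as maternally expressed, and the other 4 (Copg2, Ube3a, Gnas and Commd1) depend on tissue or transcript. The counts used here add the reads of both parental copies, so all values are total levels and say nothing of which copy was transcribed.

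The libraries held 35923040 to 84876603 expected counts each, with a median of 61504816. Levels are given as TPM, RSEM's value per transcript length, which can be compared between genes, and tests are given as log2 fold changes ± SE from edgeR's quasi-likelihood model of the counts, with p-values adjusted over 20839 genes. A gene was called, and is said to have risen or fallen, when it changed 2-fold or more with an adjusted p no higher than 0.01 and its mean normalised count reached 100 over the whole series and in 1 or both compared groups. Stage markers followed the labels in part. Nanog averaged 358 TPM in ESC, Fgf5 119 TPM in EpiSC and Brachyury (T) 502 TPM in M. Of the 4 IM markers Osr1, Wt1, Pax2 and Lhx1, 2 were called higher and 1 lower in IM1 against M. In IM3 against M, 1 was called higher and 1 lower. Pax2 was at most 0.22 TPM on average in any IM group. Of the 5 Sertoli markers Sox9, Amh, Dhh, Nr5a1 and Dmrt1, 3 were called higher in iSLC against ESC and 2 in iSLC against IM3. The Sertoli hormone gene Amh averaged 0.560 TPM in iSLC, where Nr5a1 and Dmrt1, the delivered factors, reached 93.8 and 213 TPM. The levels of these delivered factors were set by the design, so they do not bear on Sertoli identity. Libraries fell into a pair of sets by the summed level of 6 adult red blood cell genes, which was 3.90 to 27.1 CPM (counts scaled to library size) in ESC, M, IM3 and IM4 and 0.38 to 1.39 CPM in EpiSC, IM1, IM2, IM5 and iSLC; the dependence of counts on GC content split the groups in nearly the same way. Summed heart muscle genes reached 128 to 255 CPM in IM3 and at most 86.7 CPM elsewhere. The sum of 5 neural genes was highest in iSLC, at 100.3 to 112 CPM against 17.4 to 73.3 CPM elsewhere. The 5 did not move together, with 1 called higher and 2 lower in iSLC against ESC. Summed skeletal muscle genes were at 0.75 CPM or less. All comparisons below except IM3 against M, IM4 against IM3 and IM5 against IM2 cross these sets, and the part of this split in the results was tested only through a correction for GC content.

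The 40 genes took a growing share of the transcriptome along the path. Their summed TPM made up 0.374 to 0.381% of each ESC library, 0.274 to 0.283% in EpiSC, 0.650 to 0.689% in M, 1.72 to 2.02% in the 15 IM libraries and 3.23 to 3.40% in iSLC, and none of these ranges overlapped. In a bulk library a change in the share of cells that express a gene and a change of its RNA per cell cannot be told apart, here and in every result below. H19, Igf2, Dlk1, Meg3 and Mest together equalled 81.5 to 96.0% of the net increase in the summed mean TPM between M and each of the 5 IM groups. Falls of other members make the net increase smaller and this share larger. From M to IM2, where the share was 94.2%, mean Phlda2 went from 735 to 94.6 TPM and mean Peg10 from 648 to 275 TPM. In iSLC, H19 ranked 4th of all genes by mean TPM, Dlk1 8th and Mest 17th. For 17 of the 40 genes the highest group mean was in iSLC, and for 30 the lowest was in ESC or EpiSC (14 and 16). The same counts were not made over all genes, so they do not show a trait of the 40. Compared with the 9 libraries of ESC, EpiSC and M, all 15 IM libraries were higher for 18 genes and lower for 1, Copg2, with overlap for the other 21; 15.2% of all genes tested lay wholly higher in this way and 7.39% wholly lower. Across all 9 groups together, 40 of 40 genes passed (adjusted p under 0.05), where 96.4% of all genes tested did so.

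**Figure D1:**
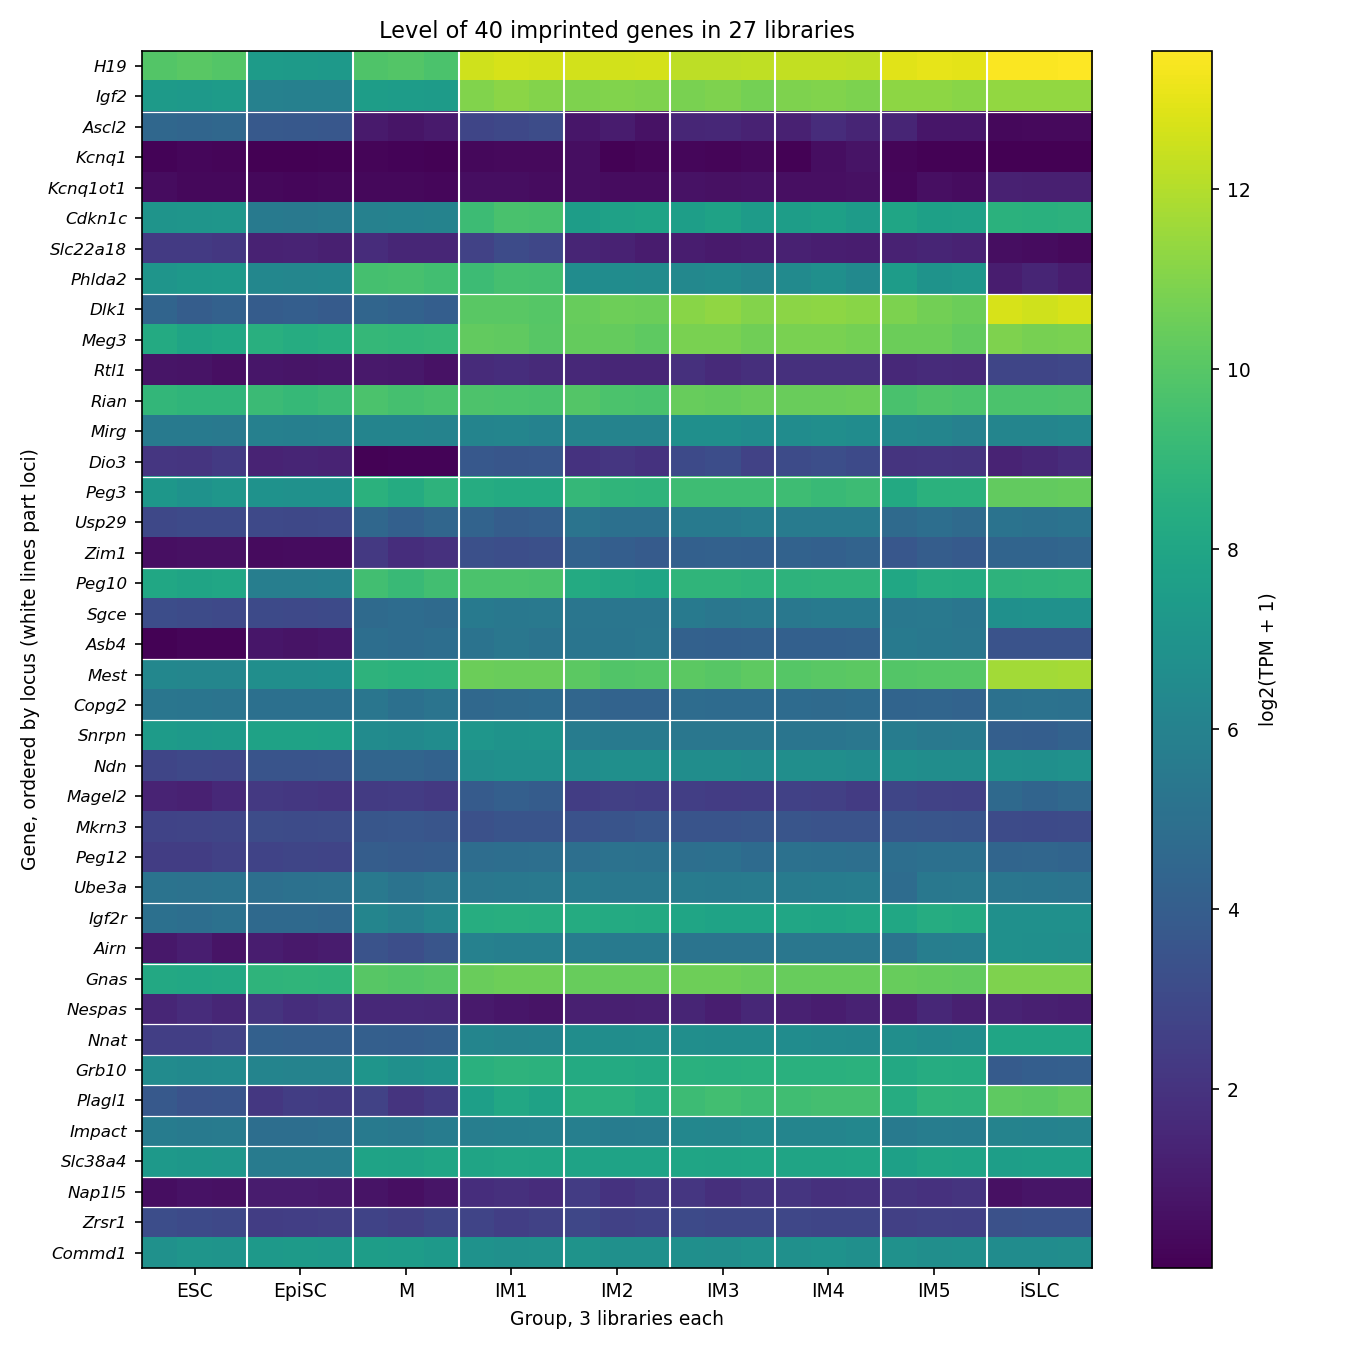
Level of each of the 40 imprinted genes (rows, ordered by locus) in each of the 27 libraries (columns, 3 per group), as log2(TPM + 1). H19, Igf2, Dlk1 and Meg3 are bright from IM1 onwards, while Phlda2 and Grb10 are dark only in iSLC among the later groups.

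H19 and Igf2 lie side by side on chromosome 7 and share enhancers. H19 (ENSMUSG00000000031, chr7:142575529-142578143, minus strand, GRCm38) is a maternally expressed long non-coding RNA, and Igf2 (ENSMUSG00000048583, chr7:142650766-142666816, minus strand) encodes a paternally expressed growth factor. Both fell from ESC to EpiSC, returned in M and rose steeply in IM. H19 stood at 952, 1064 and 971 TPM in ESC, 172, 167 and 163 TPM in EpiSC, 897, 966 and 839.9 TPM in M, 5989, 6750.2 and 6495 TPM in IM1 and 4603, 4647 and 4811 TPM in IM3. No library of IM overlapped with any earlier library. The fitted changes of H19 were -2.53 ± 0.071 for EpiSC against ESC, 2.36 ± 0.070 for M against EpiSC, 2.75 ± 0.071 for IM1 against M and 2.18 ± 0.070 for IM3 against M (adjusted p = 1.9e-20, 1.9e-20, 9.1e-22 and 6.2e-20, edgeR). Igf2 followed the same course at a lower level. Igf2 stood at 167, 163 and 175 TPM in ESC, 61.4, 59.4 and 59.0 TPM in EpiSC, 184, 176 and 169.8 TPM in M, 2046, 2334 and 2058 TPM in IM1 and 1774, 1906 and 1692 TPM in IM3. Its rise from M was 3.41 ± 0.049 in IM1 and 3.16 ± 0.048 in IM3 (adjusted p = 1.3e-26 and 3.8e-26). The pair parted in iSLC. H19 reached 11109.9, 11259 and 11893 TPM and rose over IM3 by 1.34 ± 0.068 (adjusted p = 8.8e-16), whereas Igf2 reached 2635, 2592 and 2639.9 TPM, and its change of 0.52 ± 0.045 stayed under the fold minimum (adjusted p = 4.8e-11). The ratio of H19 to Igf2 within a library lay between 2.44 and 6.55 throughout, with group means from 2.58 in IM4 to 5.93 in ESC. Counts in visceral endoderm genes (Afp, Ttr, Apoa1, Apoa4, Amn and Cubn), which mark an extraembryonic cell type, moved with the IM step: their sum was 8.50 to 33.8 CPM in ESC, EpiSC and M and 206 to 522 CPM in IM, with 4 of the 6 called higher than in M in both IM1 and IM3, and their part in the rise of H19 and Igf2 was not tested. In iSLC this sum was back at 16.7 to 23.2 CPM and 4 of its 6 genes were called lower than in IM3, while H19 and Igf2 were higher than in every IM3 library.

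H19 is also the host of a microRNA hairpin, Mir675, which lies within its RNA on the same strand. Its mature products are shown as part of the annotated H19 gene. The counts are sums per gene and do not show how many of the counted transcripts hold the hairpin. Small RNAs were not measured. Capitals mark the seed, bases 2 to 8, and both sequences are from RefSeq (GRCm38.p6, minus strand).
mmu-miR-675-5p, chr7:142577112-142577133: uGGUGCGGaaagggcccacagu
mmu-miR-675-3p, chr7:142577078-142577099: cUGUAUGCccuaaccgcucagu

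**Figure D2:**
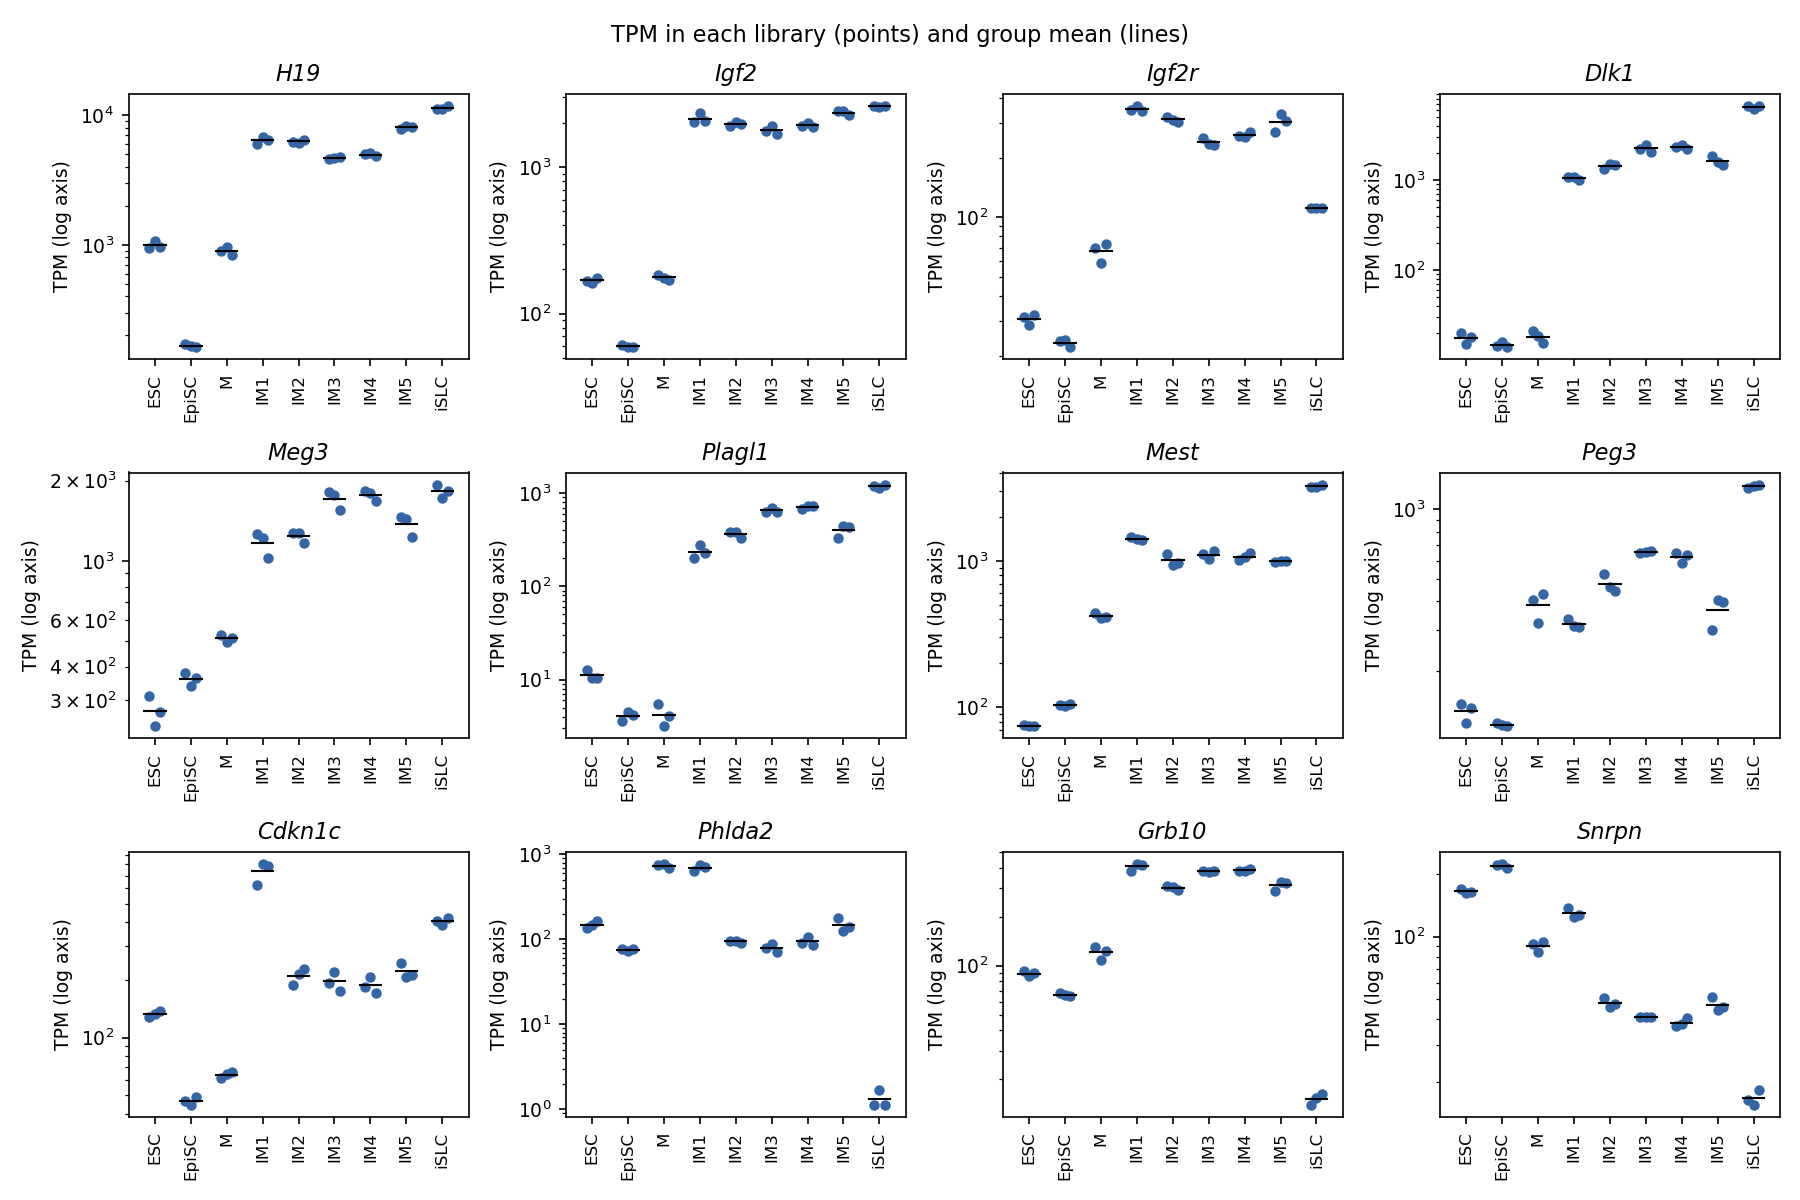
TPM (log axis) of 12 imprinted genes in each library (points) with the group mean (line), for the 9 groups from ESC to iSLC. H19, Igf2, Dlk1 and Plagl1 step up between M and IM, Phlda2 stays high in IM1 alone among the IM groups, and Grb10 drops from 381 TPM in IM3 to 15.1 TPM in iSLC.

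Igf2r (ENSMUSG00000023830, chr17:12682406-12769664, minus strand, chromosome 17) encodes the receptor that clears IGF2 from the cell surface and is maternally expressed, and Airn is the paternally expressed RNA that starts inside Igf2r on the other strand and silences it in cis. Both rose from EpiSC to M and from M to IM, and they moved in opposite directions in iSLC. Igf2r was 23.7, 23.9 and 22.1 TPM in EpiSC, 70.1, 58.5 and 73.1 TPM in M, 346, 366 and 345 TPM in IM1 and 251, 235 and 231 TPM in IM3. It then fell in iSLC to 112, 111 and 112 TPM (log2 fold change -1.10 ± 0.049 against IM3, adjusted p = 4.4e-17). Airn went from 1.12, 0.91 and 1.09 TPM in EpiSC to 9.96, 8.53 and 11.1 TPM in M, 36.2, 35.9 and 35.9 TPM in IM3 and 109.7, 106 and 103 TPM in iSLC, a further rise of 1.38 ± 0.11 over IM3 (adjusted p = 5.2e-12). In neither gene did the iSLC and IM3 libraries overlap. The share of Airn exons inside the bodies of Igf2r and Mas1 is 23.8%, and the strand setting of the counting is not given in the sources used here, so reads of unspliced Igf2r could have entered Airn. The TPM ratio of Igf2 to Igf2r was 7.08 to 8.12 in the IM3 libraries and 23.3 to 23.6 in iSLC; across the other groups it ran from 2.32 to 8.93.

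**Figure D3:**
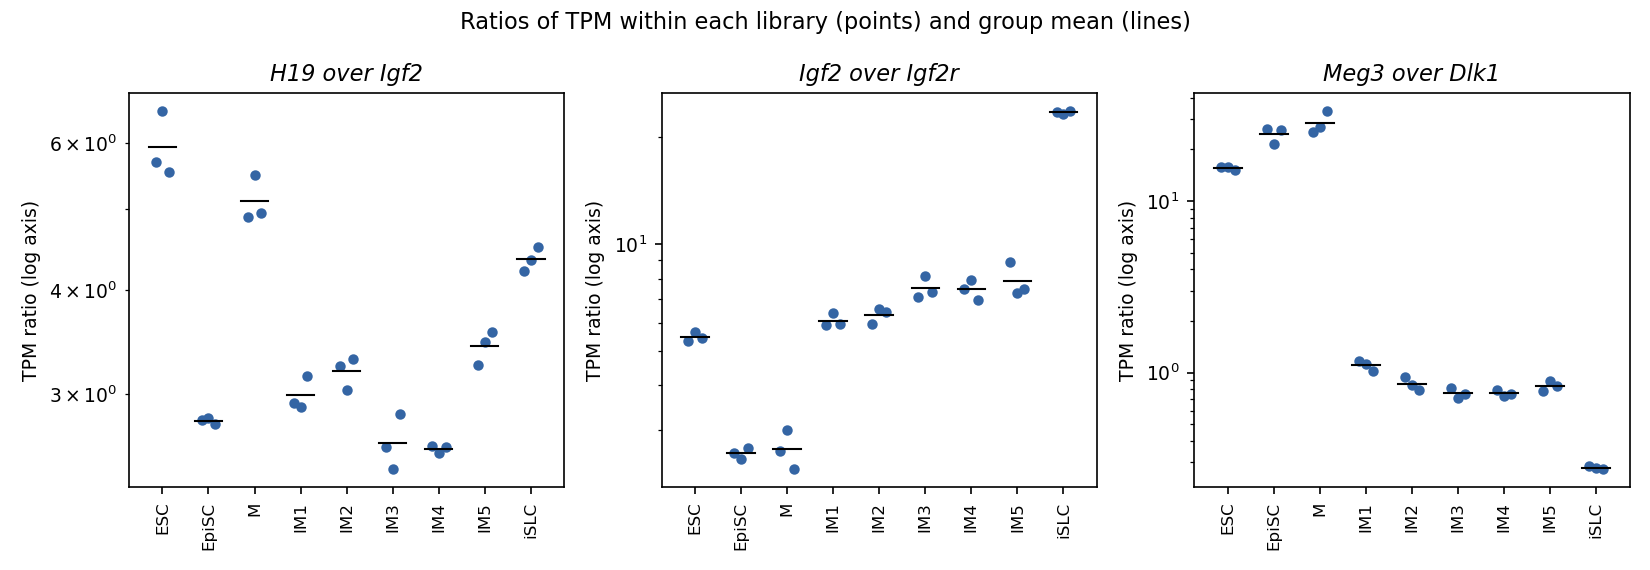
Ratio of TPM between pairs of genes within each library (points, log axis) and the group mean (line): H19 over Igf2, Igf2 over Igf2r, and Meg3 over Dlk1. The last ratio is 15.2 or more in ESC, EpiSC and M, near 1 in IM and 0.280 on average in iSLC.

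The Dlk1-Meg3 locus on chromosome 12 holds paternally expressed protein genes (Dlk1, Rtl1 and Dio3) and maternally expressed non-coding RNAs (Meg3, Rian and Mirg) read from one strand. Its protein genes rose at the IM step, whereas its RNAs were already abundant in ESC. Dlk1 (ENSMUSG00000040856, chr12:109452823-109463336, plus strand), which encodes a membrane protein related to Notch ligands, was 19.8, 15.1 and 17.8 TPM in ESC and 20.7, 18.4 and 15.5 TPM in M. It stood at 1082, 1087 and 1008 TPM in IM1, 2239, 2488 and 2076 TPM in IM3 and 6770.0, 6148 and 6703 TPM in iSLC. The rise was 5.97 ± 0.12 for IM1 and 6.75 ± 0.12 for IM3 against M, and a further 1.77 ± 0.094 for iSLC against IM3 (adjusted p = 3.7e-24, 4.4e-25 and 2.5e-15). Rtl1, a retrotransposon-derived gene of the placenta, was at most 2.75 TPM in any library before iSLC, where it was 6.10, 6.11 and 6.49 TPM, and it rose at both steps (1.42 ± 0.13 in IM3 against M, 1.36 ± 0.12 in iSLC against IM3). Dio3, which encodes the deiodinase that inactivates thyroid hormone, took another course. It was 3.46, 3.25 and 4.04 TPM in ESC and almost absent in M, at 0.05, 0.10 and 0.11 TPM or 3, 6 and 5 expected counts, then 12.1, 11.2 and 11.8 TPM in IM1, 7.42, 8.16 and 5.31 TPM in IM3 and 2.99, 3.43 and 2.98 TPM in IM2. Its fold changes against M are therefore set by very few counts in M (7.06 ± 0.21 for IM1 and 6.33 ± 0.22 for IM3). In iSLC it fell to 1.59, 1.82 and 2.31 TPM (-1.9 ± 0.13 against IM3, adjusted p = 9.7e-13).

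Of the RNAs of this locus, Meg3 (ENSMUSG00000021268, chr12:109541001-109571726, plus strand) rose from 526, 495 and 515 TPM in M to 1809, 1771 and 1553 TPM in IM3 (1.46 ± 0.073, adjusted p = 9.5e-16). Its change in IM1 was 1.05 ± 0.073, just past the fold minimum, and was 0.92 with the GC correction and 0.99 without IM1 replicate 1, where the call was lost. Rian and Mirg, the hosts of many small nucleolar RNAs and microRNAs, were called in no comparison, with group means from 472 to 1417 TPM for Rian and from 45.1 to 103 TPM for Mirg. Both were highest in IM3 and IM4. In iSLC against IM3 the RNAs did not follow Dlk1: Meg3 changed by -0.03 ± 0.072 (adjusted p = 0.72), Rian by -0.78 ± 0.057 and Mirg by -0.49 ± 0.071, all under the fold minimum. The TPM ratio of Meg3 to Dlk1 was 15.2 to 33.3 in the ESC, EpiSC and M libraries, 0.712 to 1.17 in IM and 0.273 to 0.286 in iSLC. By RefSeq, 14 microRNA hairpins lie within Mirg and 3 within Rian on the same strand, and 6 lie within Rtl1 on the opposite strand.

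The Kcnq1 domain, also on chromosome 7, is controlled by Kcnq1ot1, a paternally expressed RNA that lies within Kcnq1 on the other strand, and its protein genes are maternally expressed. Here IM1 stood apart from the cultures with RA. Cdkn1c (ENSMUSG00000037664, chr7:143458339-143461050, minus strand), which encodes the cyclin-dependent kinase inhibitor p57, was 61.1, 64.5 and 66.1 TPM in M, 625, 808 and 789 TPM in IM1 and 193, 221 and 175 TPM in IM3. Phlda2 (ENSMUSG00000010760, chr7:143501545-143503150, minus strand), which restrains placental growth, was 741, 779.5 and 684 TPM in M, 634, 747 and 719 TPM in IM1 and 79.9, 88.2 and 71.1 TPM in IM3. Every IM1 library lay above every library of IM2 to IM5 for both genes. Against IM1, IM3 was lower for 4 genes of the domain: Phlda2 (-3.50 ± 0.15), Slc22a18, an organic cation transporter family member (-2.81 ± 0.15), Cdkn1c (-2.25 ± 0.11) and Ascl2, a transcription factor of trophoblast and intestinal stem cells (-2.07 ± 0.20; adjusted p = 1.1e-16, 3.0e-14, 3.8e-15 and 2.5e-09), in a comparison that called 6.34% of all genes. Kcnq1ot1 was not called (0.39 ± 0.16, adjusted p = 0.041), and Kcnq1 itself, a potassium channel gene, had only 1 to 38 expected counts in any library. Slc22a18 was 5.35, 7.59 and 6.46 TPM in IM1 and 1.13, 0.98 and 1.10 TPM in IM3. It sat at the count minimum, with a mean of 101 normalised counts, and its calls that involve ESC or IM1 were lost when any library of that group was left out.

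In iSLC the genes of the Kcnq1 domain went different ways. Phlda2 fell to 1.12, 1.68 and 1.12 TPM, against 71.1 TPM or more in IM3 and 634 TPM or more in IM1, a change of -5.64 ± 0.24 from IM3 (adjusted p = 1.8e-17). Cdkn1c stood at 407, 388 and 420.2 TPM and was called higher than IM3 (1.24 ± 0.11, adjusted p = 7.9e-11), but the change was 0.80 with the GC correction, under the fold minimum. Some 30.7% of Cdkn1c exon bases overlap an antisense gene model, Gm44732. Kcnq1ot1 was 0.59, 0.52 and 0.61 TPM in IM3 and 1.38, 1.33 and 1.27 TPM in iSLC, a rise of 1.21 ± 0.16 (adjusted p = 1.2e-07); unspliced Kcnq1 reads cannot be told apart from it without strand. Ascl2 was at 22.2, 20.5 and 22.0 TPM in ESC, 13.0, 12.1 and 11.7 TPM in EpiSC and 1.02, 0.73 and 1.02 TPM in M, a fall of -3.81 ± 0.21 at the mesoderm step (adjusted p = 6.5e-15), and was lowest in iSLC, at 0.23, 0.28 and 0.27 TPM. The markers of trophoblast, a tissue in which Phlda2 and Ascl2 act, differed among themselves: Hand1, Plac1 and Krt7 averaged 295, 152 and 4.52 TPM in IM1, while Elf5, Prl3d1 and Tpbpa were at 0.24 TPM or less in every IM group. Their sum was 192 to 214 CPM in M, 386 to 407 CPM in IM1, 138 to 146 CPM in IM3 and 13.5 to 14.8 CPM in iSLC. It did not go with Phlda2 in every group. The sum was 233 to 246 CPM in IM2 and 262 to 373 CPM in IM5, above M. Phlda2 was 91.1 to 96.9 TPM in IM2 and 125 to 180 TPM in IM5, below M. In EpiSC the sum was 25.9 to 27.6 CPM, with Phlda2 at 72.9 to 77.5 TPM. The part of trophoblast cells in the Phlda2 result was not tested.

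Peg3, which encodes a zinc finger protein of maternal behaviour and growth, and Usp29, a ubiquitin protease gene, are paternally expressed neighbours on chromosome 7 that start back to back. Zim1, a maternally expressed zinc finger gene, lies beyond Peg3. All 3 rose from EpiSC to M, a step at which 14.5% of all genes were called. Peg3 was 119, 116 and 115 TPM in EpiSC and 406, 323 and 429.6 TPM in M (1.67 ± 0.071, adjusted p = 3.2e-17), Usp29 7.11, 6.63 and 6.87 TPM and 21.7, 16.9 and 21.5 TPM (1.40 ± 0.073), and Zim1 0.34, 0.40 and 0.38 TPM and 3.71, 2.45 and 2.89 TPM (3.18 ± 0.11). All 3 had a higher mean in IM3, which received RA, than in IM1, and Usp29 alone of them was called. IM1 held 336, 311 and 309 TPM of Peg3 and IM3 648, 656 and 657 TPM (0.95 ± 0.070, under the fold minimum), and Usp29 rose from 18.8, 15.2 and 16.5 TPM to 47.0, 46.5 and 53.1 TPM (1.38 ± 0.070, adjusted p = 6.8e-15). The divergent pair came apart in iSLC. Peg3 reached 1232, 1265 and 1279 TPM, above every other library, with a change of 0.97 ± 0.070 from IM3, whereas Usp29 was 34.9, 32.8 and 34.4 TPM, with a change of -0.44 ± 0.069; neither passed the fold minimum (adjusted p = 1.4e-12 and 2.3e-06), and Peg3 did so only with the GC correction (1.06). The Usp29 rise from M to IM3, 1.02 ± 0.070, was 0.94 without M replicate 2 and 0.98 without IM3 replicate 3, where the call was lost.

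The bases between the annotated starts of Peg3 and Usp29 (RefSeq, GRCm38.p6, chr7:6730420-6730582) are shown on the minus strand, so that Peg3 transcription leaves to the right and Usp29 transcription to the left. The stretch is 163 bases long, and capitals mark its 5 CpG dinucleotides.
Peg3-Usp29 interval: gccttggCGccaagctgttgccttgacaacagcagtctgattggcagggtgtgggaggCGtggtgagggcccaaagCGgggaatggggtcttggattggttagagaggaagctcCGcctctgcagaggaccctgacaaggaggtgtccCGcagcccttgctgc

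Plagl1 (ENSMUSG00000019817, chr10:13060504-13131694, plus strand, chromosome 10), a paternally expressed zinc finger transcription factor gene, showed the largest rise of the 40 genes between M and IM3. It was 12.7, 10.3 and 10.4 TPM in ESC, 3.57, 4.54 and 4.16 TPM in EpiSC and 5.42, 3.17 and 4.05 TPM in M. In IM it climbed to 200.1, 275 and 226 TPM in IM1, 384, 385 and 331 TPM in IM2, 630.0, 697 and 631 TPM in IM3, 677, 724 and 726 TPM in IM4 and 332, 444 and 430.1 TPM in IM5. The rises against M were 5.58 ± 0.12 for IM1 and 7.07 ± 0.12 for IM3, and IM3 was above IM1 by 1.49 ± 0.093 (adjusted p = 1.1e-23, 2.9e-25 and 4.4e-13). The cultures with Activin A lay lower than those without it, by -0.84 ± 0.092 for IM2 against IM3 and -0.73 ± 0.092 for IM5 against IM4, both under the fold minimum. In iSLC it was 1181, 1136 and 1236 TPM, higher than in every IM library, though its change from IM3 of 0.86 ± 0.092 was under the fold minimum (adjusted p = 3.6e-09).

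Mest (ENSMUSG00000051855, chr6:30723547-30748465, plus strand, chromosome 6), a paternally expressed gene of the hydrolase family that is abundant in embryonic mesoderm, rose at the mesoderm, IM and iSLC steps. It was 75.9, 74.5 and 74.5 TPM in ESC, 104, 102 and 105 TPM in EpiSC, 438, 404 and 411 TPM in M, 1451, 1408 and 1393 TPM in IM1, 1109.6, 1029 and 1174 TPM in IM3 and 3183, 3209.8 and 3315 TPM in iSLC. The libraries of these groups did not overlap. The changes were 1.9 ± 0.061 for M against EpiSC, 1.69 ± 0.060 for IM1 against M, 1.22 ± 0.059 for IM3 against M and 1.58 ± 0.060 for iSLC against IM3 (adjusted p = 8.1e-20, 6.0e-19, 4.9e-16 and 1.7e-18). Copg2, a coat protein gene that overlaps the 3′ end of Mest on the other strand, ranged from 18.7 to 38.7 TPM over all libraries and was called in no comparison. The overlap covers 23.1% of Mest exon bases and 17.8% of those of Copg2.

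The promoters of Plagl1, Mest and Nap1l5 are printed because these are the paternally expressed genes that rose from M in both IM1 and IM3 and hold a hexamer of imprinting control regions in a listed window. Airn, Dio3, Dlk1, Igf2, Ndn and Nnat rose in both as well, and their listed windows hold 0 matches. Each line gives the 250 bases before a RefSeq start (GRCm38.p6, in the direction of the gene), with capitals on each match of TGCCGC, the hexamer that ZFP57 binds when it is methylated, or of its reverse complement GCGGCA. The window of Mest holds 2 matches and 14 CpG, that of Plagl1 1 match and 19 CpG, and that of Nap1l5 1 match and 10 CpG.
Plagl1, chr10:13090582-13090831, plus strand: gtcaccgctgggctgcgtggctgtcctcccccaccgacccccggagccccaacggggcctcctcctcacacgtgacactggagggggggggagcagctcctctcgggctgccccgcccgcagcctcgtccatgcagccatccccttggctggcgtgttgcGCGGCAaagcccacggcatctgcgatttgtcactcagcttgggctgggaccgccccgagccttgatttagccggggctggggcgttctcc
Mest, chr6:30737800-30738049, plus strand: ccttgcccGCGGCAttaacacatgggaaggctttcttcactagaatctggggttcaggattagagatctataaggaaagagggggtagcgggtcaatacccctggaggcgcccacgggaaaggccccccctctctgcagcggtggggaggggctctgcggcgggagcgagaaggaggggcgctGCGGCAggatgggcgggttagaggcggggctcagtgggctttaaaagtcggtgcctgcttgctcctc
Nap1l5, chr6:58907127-58907376, minus strand: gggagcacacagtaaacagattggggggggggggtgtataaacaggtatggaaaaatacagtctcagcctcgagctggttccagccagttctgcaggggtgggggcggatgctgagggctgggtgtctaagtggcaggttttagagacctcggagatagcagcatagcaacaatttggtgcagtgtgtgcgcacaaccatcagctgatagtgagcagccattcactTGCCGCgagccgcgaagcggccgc

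Promoter windows were listed for 32 of the 40 genes, and 6 of the 32 (18.8%) held the hexamer in at least 1 window: Plagl1, Mest, Nap1l5, Copg2, Zim1 and Meg3. Of all 27025 genes listed, 2660 (9.84%) did. Some genes have more than 1 window. By window the shares were 7 of 49 (14.3%) for the imprinted genes and 2850 of 32851 (8.68%) for all genes. The 7 include overlapping windows of Mest, and CpG content was not matched. A match is a description of these letters and not a measurement of binding or methylation.

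Peg10 and Sgce start back to back on chromosome 6, both paternally expressed, and Asb4 lies nearby and is maternally expressed. Peg10, a retrotransposon-derived gene needed in the placenta, was 272, 237 and 261 TPM in ESC, 54.9, 54.7 and 55.9 TPM in EpiSC and 683, 573 and 687 TPM in M. It fell by 2.17 on the log2 scale in EpiSC and rose by 3.48 ± 0.064 in M (adjusted p = 1.7e-20 and 9.7e-25). After M it was called in no further step. Sgce, which encodes epsilon-sarcoglycan, was 7.43, 6.93 and 7.31 TPM in EpiSC, 24.5, 26.4 and 25.1 TPM in M, 45.9, 40.3 and 43.8 TPM in IM3 and 112, 113 and 116 TPM in iSLC. It rose in M (1.73 ± 0.066) and again in iSLC (1.41 ± 0.059, adjusted p = 1.5e-17), where Peg10 changed by -0.01 ± 0.058 (adjusted p = 0.9). Asb4, an ankyrin repeat and SOCS box gene of vascular and trophoblast cells, was 0.06, 0.14 and 0.13 TPM in ESC and 0.77, 0.64 and 0.77 TPM in EpiSC, then 29.1, 26.3 and 28.5 TPM in M (5.11 ± 0.11, adjusted p = 1.4e-23). Among IM cultures it split by treatment. The groups without RA or with Activin A held 34.6, 41.2 and 36.8 TPM (IM1), 37.2, 37.9 and 40.7 TPM (IM2) and 46.9, 41.8 and 40.7 TPM (IM5), and those with RA alone or RA and CHIR99021 17.6, 17.1 and 17.6 TPM (IM3) and 16.9, 17.2 and 17.4 TPM (IM4). The low groups were also those with more red blood cell counts among the IM cultures, and those with lower levels of the endothelial genes Cdh5, Pecam1, Tie1 and Kdr, whose sum was 321 to 345 CPM in IM1, 167 to 184 CPM in IM2 and IM5 and 112 to 138 CPM in IM3 and IM4; their part in the result was not tested.

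The Snrpn locus of chromosome 7, the mouse counterpart of the Prader-Willi and Angelman region, did not move as a unit. Between ESC and iSLC, Snrpn, which encodes a spliceosome protein, fell while Ndn, Magel2 and Peg12, a group of paternally expressed genes beyond it, rose. This did not hold at every step. Snrpn changed by 0.46 in EpiSC against ESC and 0.43 in IM1 against M, and Peg12 by -0.49 in iSLC against IM3, all under the fold minimum. Snrpn was 169, 162 and 165 TPM in ESC, 222, 225 and 214 TPM in EpiSC and 92.1, 84.3 and 94.5 TPM in M (-1.36 ± 0.065, adjusted p = 3.9e-16). It stood at 138, 125 and 127 TPM in IM1, 40.9, 41.1 and 41.0 TPM in IM3 and 16.3, 15.4 and 18.2 TPM in iSLC, lower in IM3 than in IM1 by -1.76 ± 0.068 and in iSLC than in IM3 by -1.28 ± 0.071 (adjusted p = 2.5e-17 and 5.7e-15). Part of its exons (27.3%) is shared with Snurf and Gm38393 on the same strand, so the split of reads among these models is uncertain. Ndn, a gene of the MAGE family, was 20.6, 20.3 and 18.1 TPM in M and 99.5, 97.2 and 91.9 TPM in IM3 (2.10 ± 0.072, adjusted p = 2.7e-19), and was 111, 107 and 115 TPM in iSLC (0.22 ± 0.068 against IM3, under the fold minimum). Magel2, another MAGE family gene, was 4.18, 4.31 and 3.79 TPM in M, 14.1, 15.9 and 14.2 TPM in IM1, 4.68, 4.44 and 4.50 TPM in IM3 and 23.5, 19.5 and 22.6 TPM in iSLC. It was thus high without RA, low with it (-1.79 ± 0.10, adjusted p = 8.9e-14) and high again in iSLC (2.28 ± 0.10, adjusted p = 8.9e-17). Peg12 rose from 5.68, 6.09 and 5.96 TPM in EpiSC to 15.2, 13.8 and 14.7 TPM in M (1.23 ± 0.064). Mkrn3, a ring finger gene tied to puberty, and Ube3a, the ubiquitin ligase gene of Angelman syndrome, were called in no comparison, with library ranges of 5.54 to 12.1 and 26.6 to 53.4 TPM.

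Grb10 and Phlda2 had the largest falls of the 40 genes between IM3 and iSLC. Grb10 (ENSMUSG00000020176, chr11:11930508-12038683, minus strand, chromosome 11) encodes an adaptor that restrains insulin and IGF receptor signalling, and is maternally expressed in most tissues and paternally in neurons. It was 131, 109 and 123 TPM in M, 385, 426 and 415 TPM in IM1 and 383, 379 and 381 TPM in IM3, and 13.8, 15.3 and 16.1 TPM in iSLC, below every other library of the series. The rise from M to IM3 was 1.47 ± 0.050 and the fall from IM3 to iSLC -4.70 ± 0.058 (adjusted p = 2.4e-19 and 1.3e-27). Nap1l5, a paternally expressed gene inside the body of Herc3, was 0.67, 0.50 and 0.72 TPM in M, 3.40, 2.57 and 3.18 TPM in IM3 and 0.53, 0.73 and 0.73 TPM in iSLC, a rise of 2.10 ± 0.17 and a fall of -2.12 ± 0.16. Both Nap1l5 calls were lost when the model held only the compared groups, at log2 fold changes of 2.13 and -2.14. Nnat, a paternally expressed gene within Blcap that encodes a small membrane protein, was 4.77, 4.75 and 5.38 TPM in ESC, 16.7, 16.5 and 16.4 TPM in EpiSC, 104, 99.4 and 98.3 TPM in IM3 and 245, 245 and 246 TPM in iSLC. It rose in EpiSC (1.77 ± 0.083), in IM3 (2.46 ± 0.068 against M) and in iSLC (1.3 ± 0.060), though the last was 0.84 with the GC correction. Gnas, which encodes the stimulatory G protein alpha subunit, rose from 449.6, 460.2 and 452 TPM in EpiSC to 1024, 950.1 and 1031 TPM in M (1.06 ± 0.048) and reached 1915, 1917 and 1942 TPM in iSLC; 22.0% of its exon bases overlap antisense models, among them Nespas. Nespas stayed at or under 3.13 TPM and fell in IM1 (-1.41 ± 0.18 against M). Slc38a4, an amino acid transporter gene, fell from 153, 144 and 139.5 TPM in ESC to 48.3, 49.5 and 49.5 TPM in EpiSC (-1.49 ± 0.042), regained 235, 225 and 251 TPM in M (2.33 ± 0.043) and was called in no later step. Impact, Zrsr1 and Commd1, which act in translation control, splicing and copper handling, were called in no comparison, with library ranges of 29.2 to 81.3, 4.61 to 9.68 and 95.0 to 186 TPM.

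Seen comparison by comparison, the step from ESC to EpiSC called more of the 40 genes lower than higher. Between ESC and EpiSC 10 were called, 2 higher (Nnat and Magel2) and 8 lower (H19, Igf2, Cdkn1c, Slc22a18, Dio3, Peg10, Plagl1 and Slc38a4), where 8.07% of all 20839 genes were called, 3.75% higher and 4.32% lower. Of the genes over the count minimum, 13.3% were called. This balance rested on the fold minimum: without it 28 of the 40 were called, 13 higher and 15 lower, with 37.7% of all genes called, 18.8% higher and 18.9% lower. The log2 fold changes of H19 (-2.53), Peg10 (-2.17), Plagl1 (-1.63) and Igf2 (-1.54) passed with any 1 library left out. The median log2 fold change over the 40 genes was -0.07, against -0.003 over all genes. The step to M raised 15 and lowered 3 (Ascl2, Dio3 and Snrpn), with 14.5% of all genes called, 6.79% higher and 7.72% lower, and 23.7% of those over the count minimum. The 15 were H19, Igf2, Phlda2, Peg3, Usp29, Zim1, Peg10, Sgce, Asb4, Mest, Peg12, Igf2r, Airn, Gnas and Slc38a4, and the median over the 40 genes was 0.45, against -0.056. The number of the 40 genes over the count minimum was 36 to 39, depending on the comparison, while 12669 to 13253 of the 20839 tested genes were over it. The share of genes over the minimum is therefore given beside that of all genes.

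Of the single steps, that from M to IM gave the most rises. IM1 had 20 called against M, 19 higher and Nespas lower, with 15.7% of all genes called, 9.72% higher and 5.94% lower, and 25.1% of those over the count minimum. IM3 had 20 called against M, 18 higher and 2 lower (Phlda2 and Snrpn), with 14.9% of all genes called, 9.26% higher and 5.66% lower, and 23.9% of those over the count minimum. The medians over the 40 genes were 0.97 and 0.68, and over all genes 0.002 and 0. Of the 13 maternally expressed genes, 8 rose in IM1 and 6 in IM3, and of the 23 paternally expressed genes, 11 rose in IM1 and 12 in IM3. These 2 comparisons share the M libraries, so their values are given side by side: Dlk1 5.97 and 6.75, Plagl1 5.58 and 7.07, Igf2 3.41 and 3.16, H19 2.75 and 2.18, Cdkn1c 3.67 and 1.42, Phlda2 0.07 and -3.43. Beside the visceral endoderm genes described above, heart muscle genes (Myh6, Myl7, Actc1 and Tnnt2) rose at this step, 4 of 4 in both comparisons, with a sum of 5.41 to 6.12 CPM in M, 69.9 to 86.7 CPM in IM1 and 128 to 255 CPM in IM3. Of the 4 endothelial genes Cdh5, Pecam1 and Tie1 were called higher in both and Kdr lower in IM3, and their sum was 197 to 226 CPM in M, 321 to 345 CPM in IM1 and 115 to 131 CPM in IM3. The part of these cell types in the rises was not tested.

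RA added to the IM1 medium, IM3 against IM1, called 9 genes, 2 higher (Usp29 and Plagl1) and 7 lower (Phlda2, Slc22a18, Cdkn1c, Ascl2, Asb4, Snrpn and Magel2), where 6.34% of all genes were called, 2.62% higher and 3.72% lower, and 10.2% of those over the minimum. Without the fold minimum 29 were called, 13 higher and 16 lower, with 34.5% of all genes called, 17.2% higher and 17.3% lower. The 7 that were lower include 5 of the 13 maternally expressed genes. Activin A called fewer of the 40 genes. In IM2 against IM3, Asb4 rose (1.17 ± 0.079) and Dio3 fell (-1.16 ± 0.13), the only 2 of 40 called, with 3.8% of all genes called and 6.14% of those over the count minimum. In IM5 against IM4 the same 2 were called in the same directions, Asb4 at 1.40 ± 0.078 and Dio3 at -1.23 ± 0.13, with 4.09% of all genes called and 6.61% of those over the count minimum. Phlda2 in this pair was 0.95 ± 0.14, and it passed the fold minimum when IM4 replicate 2, IM5 replicate 2 or IM5 replicate 3 was left out (1.02 to 1.09). CHIR99021 called none of the 40 genes, by edgeR or by DESeq2, in IM4 against IM3 (0.101% of all genes called, 7 of the 40 at an unadjusted p under 0.05) or in IM5 against IM2 (0.235% called, 16 at an unadjusted p under 0.05). Under the fold minimum, H19 (0.42 ± 0.067), Igf2 (0.26 ± 0.045) and Phlda2 (0.73 ± 0.13) were above their IM2 level in IM5 and Peg3 (-0.31 ± 0.069) below it, each with an adjusted p of at most 0.01 (1.3e-04, 3.1e-04, 6.3e-04 and 0.0043). The difference of the Activin A effect with and without CHIR99021 was called for none of the 40 genes by edgeR or DESeq2 (0.0336% of all genes by edgeR), with 10 at an unadjusted p under 0.05. IM5 replicate 1 stood apart from its group for several genes, such as Airn (35.2, 54.2 and 57.1 TPM), Peg3 (301, 405 and 399 TPM) and Ube3a (26.6, 42.8 and 43.0 TPM), and leaving it out changed no call.

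**Figure D4:**
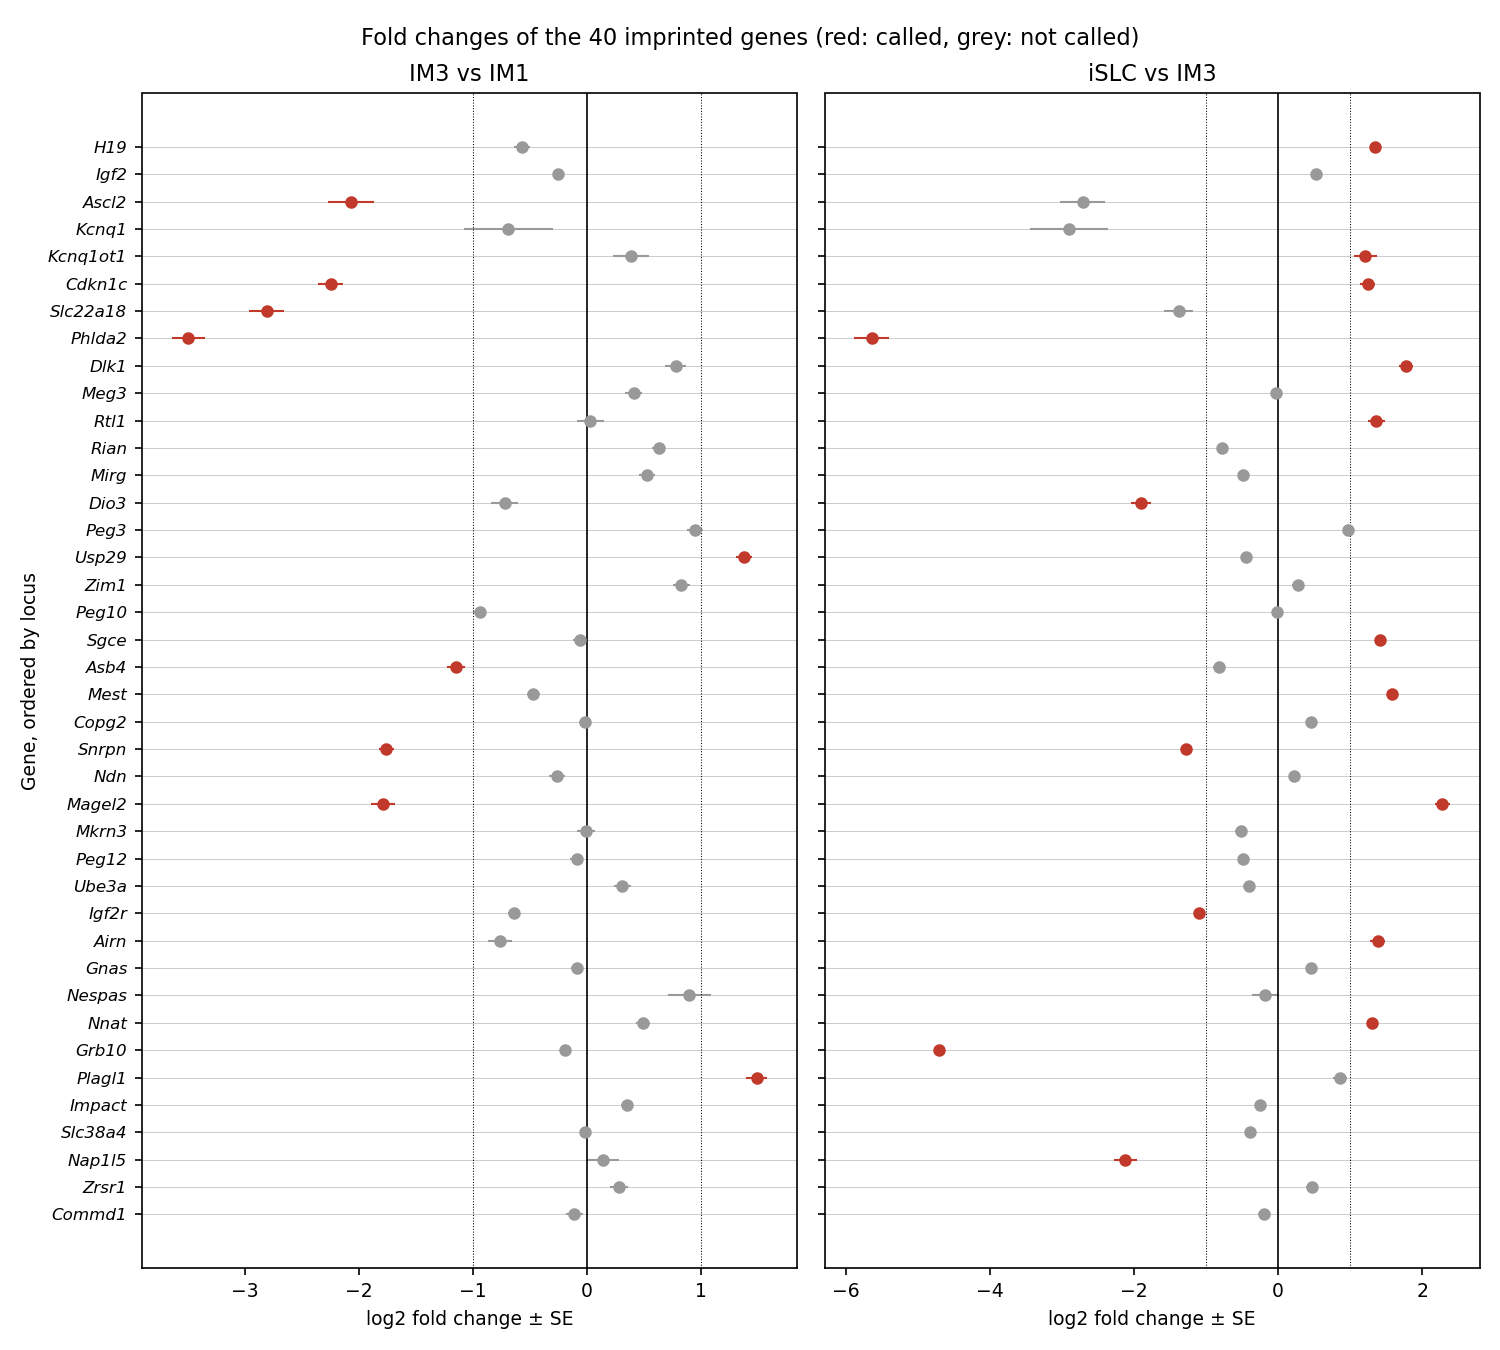
log2 fold change ± SE of each of the 40 imprinted genes (rows, by locus) for RA alone (IM3 vs IM1, left) and for the last step (iSLC vs IM3, right); red points were called, grey points were not, and dotted lines mark a fold change of 2. Phlda2 lies at -3.50 and -5.64, Grb10 at -0.19 and -4.70, and Magel2 at -1.79 and 2.28.

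The last step, iSLC against IM3, called 16 of the 40 genes, 10 higher and 6 lower, where 19.2% of all genes were called, 10.3% higher and 8.92% lower, and 30.9% of those over the count minimum. Those that rose were H19, Kcnq1ot1, Cdkn1c, Dlk1, Rtl1, Sgce, Mest, Magel2, Airn and Nnat, 8 of them paternally expressed. Those that fell were Phlda2, Grb10, Nap1l5, Dio3, Snrpn and Igf2r, of which Phlda2, Grb10 and Igf2r are maternally expressed. Of the 4 maternally expressed genes named above as restraining growth, those 3 thus fell, and the other, Cdkn1c, rose. The medians were 0.47 for the 23 paternally expressed genes and -0.82 for the 13 maternally expressed genes, and -0.10 for all 40, against 0 over all genes. The 13 include Kcnq1 (-2.90), Ascl2 (-2.71) and Slc22a18 (-1.38), which were under the count minimum in this comparison and lower the maternal median. Markers of other cell types moved with this step too: from IM3 to iSLC the visceral endoderm sum went from 212 to 249 CPM down to 16.7 to 23.2 CPM, the endothelial sum from 115 to 131 CPM down to 5.98 to 7.12 CPM and the trophoblast sum from 138 to 146 CPM down to 13.5 to 14.8 CPM, and 4 of 6, 4 of 4 and 3 of 5 tested genes of these lists were called lower. The heart muscle sum went from 128 to 255 CPM down to 83.8 to 84.7 CPM, with 3 of 4 genes called lower. The neural sum went from 24.1 to 27.03 CPM up to 100.3 to 112 CPM, with 1 of 5 genes, Map2, called higher. The iSLC were sorted for CFP, and the part of these cells in the changes was not tested. Over the whole path, iSLC against ESC, 27 genes were called, 21 higher and 6 lower (Ascl2, Slc22a18, Phlda2, Dio3, Snrpn and Grb10), with 32% of all genes called, 17% higher and 15% lower, and 50.3% of those over the count minimum. The largest rises were Dlk1 (8.58 ± 0.13), Plagl1 (6.46 ± 0.12), Airn (6.39 ± 0.16) and Asb4 (6.21 ± 0.16), the median over the 40 genes was 1.61, and that over all genes -0.007.

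**Figure D5:**
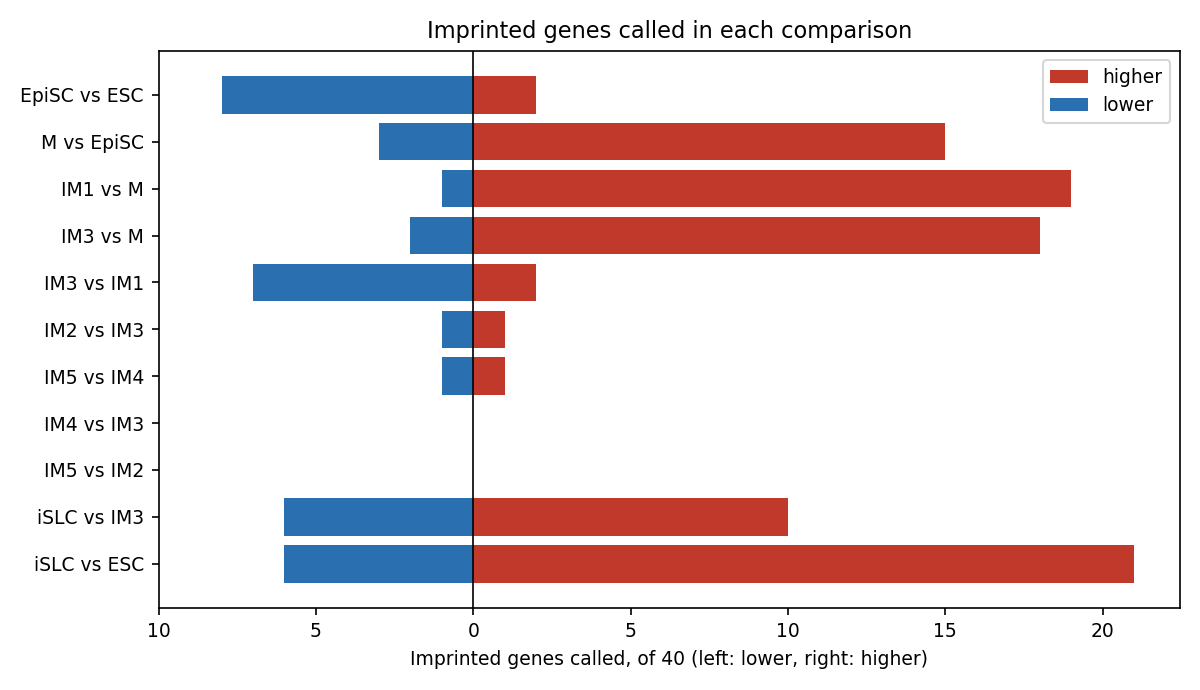
Number of the 40 imprinted genes called lower (left, blue) and higher (right, red) in each of 11 comparisons. IM1 and IM3 hold 19 and 18 higher against M and 1 and 2 lower, and IM4 against IM3 and IM5 against IM2 have none in either direction.

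The factors that keep imprints were followed as a list of 18 genes. Zfp57, Trim28, Dnmt1 and Uhrf1 were expressed in every group, while Dnmt3b and Dnmt3l, of new methylation, and Dppa3 fell in M and again in IM. Zfp57, which reads the methylated hexamer, was 294, 253 and 270.2 TPM in ESC and 84.0, 84.7 and 93.7 TPM in EpiSC (-1.62 ± 0.050, adjusted p = 1.5e-19), ranged from 64.0 to 107 TPM in M and IM, and was 142, 135 and 138 TPM in iSLC. Trim28, its co-repressor, went from 1447 TPM in ESC to 473 TPM in iSLC (-1.73 ± 0.043). Dnmt1 and Uhrf1, which copy methylation after replication, were called only in the comparisons with iSLC, with falls from IM3 of -1.02 ± 0.040 and -1.24 ± 0.052. The de novo genes Dnmt3b and Dnmt3l fell from M to IM3 by -3.94 ± 0.071 and -4.02 ± 0.16, and Dppa3, which protects imprints in the zygote, by -3.62 ± 0.21. Of the 18, the number called was 5 in EpiSC against ESC (2 higher, 3 lower) and 6 in M against EpiSC (1 higher, 5 lower). Against M it was 5 in IM1 (1 higher, 4 lower) and 6 in IM3 (3 higher, 3 lower). It was 4 in iSLC against IM3 (Tet2 higher, the others lower) and 9 in iSLC against ESC (Tet3 higher and 8 lower). None was called in IM3 against IM1, IM2 against IM3, IM5 against IM4, IM4 against IM3 and IM5 against IM2. The shares of the list were 27.8, 33.3, 27.8, 33.3, 22.2 and 50.0% in the 6 comparisons with calls, beside 8.07, 14.5, 15.7, 14.9, 19.2 and 32% of all genes and 13.3, 23.7, 25.1, 23.9, 30.9 and 50.3% of those over the count minimum. Methylation itself was not measured.

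Of 8 other genes of IGF signalling, 7 were called between ESC and iSLC, 6 higher and Igf2bp1 lower, where 32% of all genes and 50.3% of those over the count minimum were called. Igf1, which encodes the other IGF ligand, rose from near 0 in M (8.37 ± 0.20 for IM3 against M), with group means of at most 11.8 TPM beside 2622 TPM of Igf2 in iSLC. The receptor genes Igf1r and Insr rose in M (1.77 ± 0.071 and 1.51 ± 0.069) and averaged 32.9 and 29.2 TPM in iSLC. Irs1, an adaptor of both receptors, was 5.76, 4.37 and 3.81 TPM in IM1 and 18.9, 18.1 and 15.9 TPM in IM3 (1.84 ± 0.16, adjusted p = 3.6e-10) and fell in iSLC (-1.33 ± 0.16). Igf2bp1, which binds Igf2 mRNA, fell in iSLC as well (-1.54 ± 0.054, to 35.1 TPM).

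Genes that neighbour the imprinted loci without being listed as members were followed too: of 33 such genes 30 were tested, and 3, 5, 8, 8 and 6 were called in EpiSC against ESC, M against EpiSC, IM1 against M, IM3 against M and iSLC against IM3. These are 10, 16.7, 26.7, 26.7 and 20% of the 30, beside 25, 45, 50, 50 and 40% of the 40 imprinted genes, 8.07, 14.5, 15.7, 14.9 and 19.2% of all genes and 13.3, 23.7, 25.1, 23.9 and 30.9% of those over the count minimum. The difference between the lists was not tested. Near the H19 and Kcnq1 loci, Lsp1, an actin-binding protein gene, rose from 9.09, 7.80 and 8.82 TPM in M to 96.3, 100.5 and 94.6 TPM in IM3 (3.40 ± 0.081) and Cd81, a tetraspanin gene, rose in iSLC (1.39 ± 0.057). Beside Dlk1, Begain rose in IM3 (1.99 ± 0.22) and again in iSLC (3.48 ± 0.17, to 46.8, 43.3 and 43.0 TPM), the directions that Dlk1 had in these comparisons. Beside Grb10, Ddc, the aromatic amino acid decarboxylase gene, went from 1.71, 1.97 and 1.97 TPM in M to 88.8, 94.6 and 87.8 TPM in IM3 (5.50 ± 0.10). Ddc fell in iSLC (-1.72 ± 0.075), and both directions were those of Grb10. These genes are examples from a mixed list: 5 neighbours were called higher and 3 lower in IM3 against M, and 4 higher and 2 lower in iSLC against IM3. The list was meant to hold genes not imprinted or imprinted only in placenta. This was not checked gene by gene and imprinting was not examined, so some may be imprinted in other tissues.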

How the data were processed

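RNA of 27 libraries was sequenced in bulk. The authors trimmed reads with cutadapt 1.9.1, aligned them with STAR 2.5.2a to GRCm38 and estimated gene abundance with RSEM 1.3.0, and deposited expected counts and TPM for each library. Whether the counting used strand is not given in the sources used here. Expected counts were rounded and tested with the quasi-likelihood test of edgeR 4.0.16 (R 4.3.3) in 1 model of all 9 groups, with TMM factors and filterByExpr, and p-values were adjusted by Benjamini-Hochberg over 20839 genes. On simulated data with 200 changed genes for IM3 against IM1 (19758 genes), 99% of changes of 2.5-fold were called and 0 unchanged genes. The changed genes were drawn from those with a mean count of at least 200. The rate therefore does not cover members near the count minimum, such as Slc22a18, Nespas and Nap1l5. All unchanged genes had 1 mean in every group. The split of IM1 and IM3 by GC content and red blood cell counts was not simulated, so the rate of unchanged genes called does not cover it. The thresholds (adjusted p at most 0.01, fold of at least 2, mean normalised count of at least 100) follow the methods of the study, which used DESeq2. TPM was used for levels and ratios only, and the deposited FPKM, which RSEM made by scaling to length and library size for the authors, entered no result. Every one of the 40 genes was to be described, with the imprint maintenance, IGF signalling and neighbour lists by counts and examples. The members and lists were chosen with earlier results of these data known. Labels do not say that replicates were separate cultures. The figure legends of the study call them biological replicates, 3 per sample type, without saying what was repeated. The p-values measure the spread between these libraries, all of a single clone. Coordinates and overlaps are from the GRCm38 annotation, and sequences from RefSeq tables of GRCm38.p6. Alternatives were DESeq2 1.42.0, DESeq2 size factors, an effective length offset, no low-count filter, only the groups compared, no count or fold minimum, another p threshold, a replicate block, a GC offset and leaving out each library.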

Additional observations from a re-analysis of the deposited data

How the results depend on the processing

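The counts of imprinted genes called stayed within 1.5 times the reported number under all alternatives run except the removal of the fold minimum. With no fold minimum, 28 genes were called in EpiSC against ESC, 35 in IM1 against M, 33 in IM3 against M, 29 in IM3 against IM1, 22 in IM2 against IM3, 22 in IM5 against IM4, 4 in IM5 against IM2 and 33 in iSLC against IM3. Leaving out each library gave 9 to 10 called in EpiSC against ESC, 18 in M against EpiSC, 18 to 20 in IM1 against M, 19 to 21 in IM3 against M, 8 to 10 in IM3 against IM1, 2 in IM2 against IM3, 2 to 3 in IM5 against IM4, 16 in iSLC against IM3, 26 to 27 in iSLC against ESC and 40 in the test of all 9 groups, and 0 in the other 3 tests.

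Of 2108 refits of the 124 called changes, 2080 stayed called, 28 did not, and 0 turned direction. Slc22a18, close to the count minimum, was lost in DESeq2 in EpiSC against ESC, IM1 against M, IM3 against IM1 and iSLC against ESC, and Dio3 in M against EpiSC with only the compared groups in the model, at a log2 fold change of -4.33 beside -4.37 (adjusted p = 3.28e-08), where its mean count over the fewer libraries was under the count minimum. With the GC offset, Ascl2 was also called in EpiSC against ESC (-1.01), Kcnq1ot1 in IM1 against M (1.12), and Peg10 (-1.04) and Nespas (1.05) in IM3 against IM1. Samples with the same replicate number did not deviate together (mean correlation 0.012, from -0.16 to 0.158), so the numbers were not taken as pairs; with the replicate block the counts were the same, 10 in EpiSC against ESC, 18 in M against EpiSC, 20 in IM1 against M, 20 in IM3 against M, 9 in IM3 against IM1, 16 in iSLC against IM3 and 27 in iSLC against ESC.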
